A study of Mus musculus with 12 samples.

Results

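The genes of the NRF2 antioxidant system followed here, across 12 mouse liver samples, were Nfe2l2, which encodes NRF2, its inhibitor Keap1, the repressor Bach1, and the targets Hmox1, Nqo1, Gclc, Gclm, Txnrd1, Srxn1 and Slc7a11. They were chosen by name, through the gene symbols of the array annotation, and are 10 of the 16475 gene probe sets measured, with 1 probe set per gene. Members of the glutathione and glucuronosyl transferase families were left out. The samples fall into 4 groups of 3 with 1 array each, and the labels name 3 animals per group. Whether same-numbered arrays share an animal is not stated, and p-values measure the spread between these samples. Knockout mice had loxP-flanked Met alleles and a Cre transgene driven either by the albumin promoter (Alb-Cre, active from after birth) or by combined albumin and AFP regulatory elements (Alfp-Cre, active in the embryo); Met encodes the receptor of hepatocyte growth factor (HGF), and the Cre drivers direct its loss to hepatocytes, while other liver cells keep the gene. The labels do not say which transgene an array represents. Control mice carried the loxP-flanked Met alleles, and the labels describe no Cre in them. Each genotype was sampled 2 h after 2 µg of recombinant mouse HGF given into the peritoneum, and without HGF. The protocol names sodium chloride injections but not which mice received them, and strain and age are not given in the sources used here. The HGF effect therefore means the difference between groups labelled with and without HGF.

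NRF2 is a leucine zipper transcription factor that KEAP1 holds in the cytoplasm and delivers to degradation. When oxidants or electrophiles modify KEAP1, NRF2 accumulates, pairs with small MAF proteins and activates genes through antioxidant response elements. BACH1 pairs with the same small MAF proteins, represses an overlapping set of genes, Hmox1 above all, and leaves DNA when it binds haem. In liver the system controls glutathione synthesis, quinone reduction and haem breakdown, and much of NRF2's regulation acts on the protein rather than on its mRNA.

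RefSeq promoter windows of the GRCm38.p6 build, from 250 bases before to 50 bases after the start site, were matched for 8 of the 10 genes. Hmox1 and Gclc had no window and were not searched. The windows were searched on both strands for the antioxidant response element core TGACNNNGC and for the AP-1 site TGANTCA. The motifs can share bases where a core begins with the AP-1 letters. A core was found in windows of 4 of the 8 genes, Nfe2l2, Gclm, Txnrd1 and Srxn1, against 14.0% of all 27025 genes with a window. An AP-1 site was found in 1 of the 8, Srxn1, against 8.97% of all genes. The windows of the called gene Bach1 and of the 4 genes with a core are shown 5′ to 3′ as the table gives them, with the motifs in capitals. For Txnrd1 the second of 3 start sites is shown, the only one of them with a core.
Bach1 (chr16:87698704-87699003, plus strand): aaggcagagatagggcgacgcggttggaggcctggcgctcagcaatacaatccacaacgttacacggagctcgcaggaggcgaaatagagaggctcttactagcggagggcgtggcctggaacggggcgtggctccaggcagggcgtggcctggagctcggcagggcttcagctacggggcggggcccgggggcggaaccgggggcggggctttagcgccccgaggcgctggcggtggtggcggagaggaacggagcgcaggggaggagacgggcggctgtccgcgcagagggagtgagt
Nfe2l2 (chr2:75704614-75704913, minus strand): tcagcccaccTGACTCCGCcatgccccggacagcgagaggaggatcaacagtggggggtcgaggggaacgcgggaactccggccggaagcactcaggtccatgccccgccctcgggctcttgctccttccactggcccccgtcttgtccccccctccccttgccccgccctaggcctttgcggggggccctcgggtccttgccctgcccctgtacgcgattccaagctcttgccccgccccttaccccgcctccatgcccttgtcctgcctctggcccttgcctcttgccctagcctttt
Txnrd1 (chr10:82858956-82859255, plus strand): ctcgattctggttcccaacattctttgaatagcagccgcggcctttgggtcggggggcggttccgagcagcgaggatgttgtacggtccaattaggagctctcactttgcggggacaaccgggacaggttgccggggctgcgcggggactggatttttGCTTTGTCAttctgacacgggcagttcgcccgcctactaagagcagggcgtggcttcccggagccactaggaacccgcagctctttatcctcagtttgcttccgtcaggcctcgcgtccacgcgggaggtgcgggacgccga
Gclm (chr3:122245307-122245606, plus strand): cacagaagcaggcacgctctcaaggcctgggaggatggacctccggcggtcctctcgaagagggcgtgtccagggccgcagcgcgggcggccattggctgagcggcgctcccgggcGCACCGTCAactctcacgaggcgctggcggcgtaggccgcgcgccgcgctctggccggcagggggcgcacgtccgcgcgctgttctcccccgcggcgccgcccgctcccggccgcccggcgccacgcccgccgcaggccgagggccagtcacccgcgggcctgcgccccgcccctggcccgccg
Srxn1 (chr2:152105274-152105573, plus strand): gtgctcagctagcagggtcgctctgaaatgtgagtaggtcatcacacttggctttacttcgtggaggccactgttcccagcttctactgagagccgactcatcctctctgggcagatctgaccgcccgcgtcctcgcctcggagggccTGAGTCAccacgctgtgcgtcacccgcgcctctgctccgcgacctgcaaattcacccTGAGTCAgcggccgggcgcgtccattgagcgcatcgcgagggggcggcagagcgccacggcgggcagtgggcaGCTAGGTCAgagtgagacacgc
Counting from the start site, the Srxn1 window holds 2 AP-1 sites, from -102 and from -45, which read the same on both strands apart from the middle base, and a core from position 28. The cores begin at -240 in Nfe2l2, -134 in Gclm and -92 in Txnrd1, and those of Gclm, Txnrd1 and Srxn1 read on the opposite strand. A match is a string of letters and not a measured binding site.

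The 12 arrays were alike in range, with a median intensity of 6.81 to 7.08 and Pearson's r of 0.914 to 0.992 between arrays across the 6683 tested probe sets. Values are given as log2(intensity + 1), and a difference on that scale is smaller than the true change for dim genes. Testing required this value to reach 4 on at least 3 arrays, and a gene was called at a limma Benjamini-Hochberg adjusted p under 0.05 over all tested probe sets, with 1 spread estimated from all 4 groups. Of the 10 genes, 9 passed that filter and Slc7a11 did not. The knockout arrays did not order by their labels. On an index over the 6674 tested probe sets outside the gene group, where the control group without HGF averages 0 and the control group with HGF averages 1, knockout arrays labelled with HGF lay at 0.32, 0.02 and 0.94 (replicates 1 to 3), and those labelled without HGF at 0.12, 0.98 and 0.04. Some knockout results are therefore also given without both replicate 2 arrays. Their order is the reverse of that in controls and was known from earlier results. Replicate 3 with HGF lay nearly as high as replicate 2 without HGF, and which arrays are exceptional was not tested. Leaving out both replicate 2 arrays favours a larger HGF effect in knockouts. The Met probe set was at 6.77 ± 0.57 in knockouts with HGF, 6.98 ± 0.26 in knockouts without, 6.80 ± 0.21 in controls with and 6.74 ± 0.11 in controls without HGF (SD, n = 3 each), with overlapping groups; whether its probes lie in the deleted part is unknown, so Met does not check the genotype labels here. All control arrays carry numbers 1 to 6 and all knockout arrays numbers 7 to 12, so genotype and array order cannot be told apart.

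**Figure D1:**
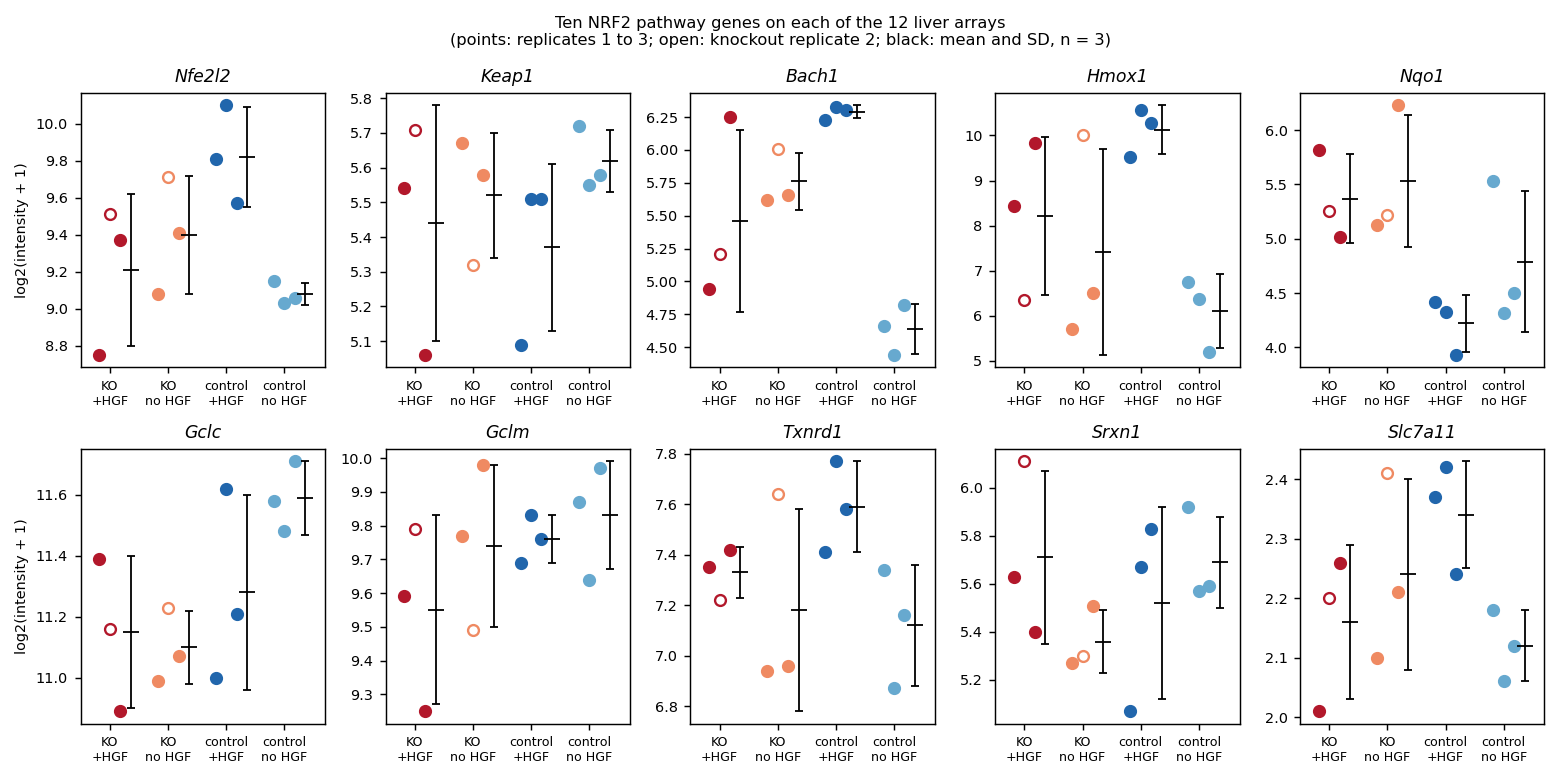
Level of the 10 genes as log2(intensity + 1) on each array, by group (knockout with HGF, knockout without HGF, control with HGF, control without HGF); points are replicates 1 to 3, open points are knockout replicate 2, and black bars are the mean and SD (n = 3). Each panel has its own axis. Hmox1 spans 5.19 to 10.57 and Bach1 4.44 to 6.33, while Gclm stays within 9.25 to 9.98 and Slc7a11 within 2.01 to 2.42.

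The first comparison asked which of these genes respond to HGF where hepatocytes keep Met. The repressor gene Bach1 rose in control livers and was the only one of the 9 tested genes that limma called, with 0.404% of all 6683 tested probe sets called. Hmox1, the haem-degrading enzyme that BACH1 represses, had the largest difference of the 9 without passing the threshold. Nfe2l2 and the thioredoxin reductase gene Txnrd1 had higher values on all arrays with HGF but did not pass, and neither did the NRF2 targets Nqo1, Gclc, Gclm and Srxn1, whose groups overlapped.

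Bach1 (Entrez Gene 12013) was at 6.23, 6.33 and 6.30 in control livers with HGF, against 4.66, 4.44 and 4.82 in control livers without HGF. The 3 arrays with HGF lay close together and well above all arrays without it. The rise was 1.65 on the log2 scale (SE 0.28, 3.13-fold, limma adjusted p = 0.0451), rank 21 by p among the tested probe sets. The call stood near the threshold. It ended with no filter (adjusted p = 0.0724), without the pair of arrays whose description has an extra letter (adjusted p = 0.167), and without any 1 of the 6 control arrays (adjusted p = 0.0990 to 0.187) or knockout replicate 1 or 3 without HGF (0.0567 and 0.0573), although the difference stayed between 1.55 and 1.74 in those fits. With the control groups fitted alone it had an adjusted p = 0.000555.

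Hmox1 (Entrez Gene 15368) was at 9.53, 10.57 and 10.28 in control livers with HGF, against 6.76, 6.37 and 5.19 in control livers without. All arrays with HGF were high and none overlapped the others. The difference of 4.02 (SE 1.10, 16.3-fold, limma adjusted p = 0.107) was measured against a spread that includes the knockout groups, where the SD of Hmox1 was 1.76 with HGF and 2.28 without, against 0.54 in controls with and 0.82 in controls without HGF. Fitted on the control groups alone, where 6.79% of probe sets were called higher and 5.19% lower, Hmox1 passed (adjusted p = 0.00248), and without both knockout replicate 2 arrays, where 8.16% were, it passed too (adjusted p = 0.00418). Leaving out knockout replicate 2 without HGF was enough (adjusted p = 0.0263).

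Hmox1 is expressed in macrophages as well as in hepatocytes, and in these bulk samples fewer cells of a type and less RNA per cell cannot be told apart. The 12 Kupffer cell and macrophage markers, all tested, had a summed intensity of 3487 to 4645 in controls with HGF and 3926 to 5970 in controls without. The 6 hepatocyte markers on the array summed to 68484 to 73626 with HGF and 71010 to 73864 without, and those of the macrophage and hepatocyte lists overlapped between the groups. Of 8 neutrophil markers on the array only S100a8 and S100a9 passed the filter, while Mpo, Csf3r, Cxcr2, Itgam, Ngp and Camp did not; the 8 summed to 785 to 2849 with HGF and 49 to 107 without. The 8 sinusoidal endothelial markers, all tested, summed to 1186 to 1277 with HGF and 1598 to 1628 without, so the sums of both lists separated the groups, in opposite directions. The sums rest on the bright genes and hide members that differed the other way. Of the endothelial markers, Lyve1 differed by 2.61 (SE 0.72) while Gpr182 (-0.91, SE 0.17), Fcgr2b (-0.82, SE 0.23) and Clec4g (-0.46, SE 0.14) were negative, and of the macrophage markers Marco differed by 2.25 (SE 0.69) and Vsig4 by -0.68 (SE 0.23). None of these 6 passed with all arrays, all 6 passed with the control groups alone, and they are named after their values were seen. Their part in the Hmox1 and Bach1 differences was not tested.

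Nfe2l2 (Entrez Gene 18024) was at 9.81, 10.10 and 9.57 in control livers with HGF, against 9.15, 9.03 and 9.06 in control livers without. All arrays with HGF were higher, and the difference of 0.74 (SE 0.22, 1.67-fold) did not pass (limma adjusted p = 0.127; 0.0230 with the control groups alone). Keap1 (Entrez Gene 50868), the NRF2 adaptor for degradation, was at 5.09, 5.51 and 5.51 with HGF, against 5.72, 5.55 and 5.58 without, a difference of -0.25 (SE 0.18) that did not pass. Its values with HGF all lay below those without, the nearest by a few hundredths.

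Among the target enzymes, Txnrd1 (Entrez Gene 50493), which reduces thioredoxin with NADPH, was at 7.41, 7.77 and 7.58 in control livers with HGF, against 7.34, 6.87 and 7.16 without. The groups did not overlap, but the difference of 0.46 (SE 0.20, limma adjusted p = 0.235) did not pass. Nqo1 (Entrez Gene 18104), a quinone reductase and a common readout of NRF2, was at 4.42, 4.33 and 3.93 with HGF, against 5.53, 4.32 and 4.50 without. It was near the filter on most control arrays, and only replicate 1 without HGF stood clearly higher; the difference was -0.56 (SE 0.37).

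Gclc (Entrez Gene 14629) and Gclm (Entrez Gene 14630) encode the catalytic and modifier subunits of glutamate-cysteine ligase, the first enzyme of glutathione synthesis. Gclc was at 11.28 ± 0.32 in control livers with HGF, against 11.59 ± 0.12 without (SD, n = 3 each), a difference of -0.31 (SE 0.17). Gclm was at 9.69, 9.83 and 9.76 with HGF, against 9.87, 9.64 and 9.97 without, a difference of -0.07 (SE 0.17). Srxn1 (Entrez Gene 76650), which repairs overoxidised peroxiredoxins, was at 5.07, 5.67 and 5.83 with HGF, against 5.92, 5.57 and 5.59 without, a difference of -0.17 (SE 0.23). The groups of all 3 genes overlapped, none passed, and the sign of Srxn1 turned without control replicate 1 with HGF.

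Slc7a11 (Entrez Gene 26570), the cystine importer of the glutathione pathway, stayed between 2.01 and 2.42 on all 12 arrays, below the filter, and its order between groups is not read here. Over the 9 tested genes, 4 had an unadjusted p under 0.05 for the HGF effect in control livers (Bach1, Hmox1, Nfe2l2 and Txnrd1), against 19.6% of all tested probe sets. The groups did not overlap for 5 of the 9, those 4 and Keap1, against 37.7% of all. The median difference of the 9 was -0.07, and that of all tested probe sets -0.09.

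**Figure D2:**
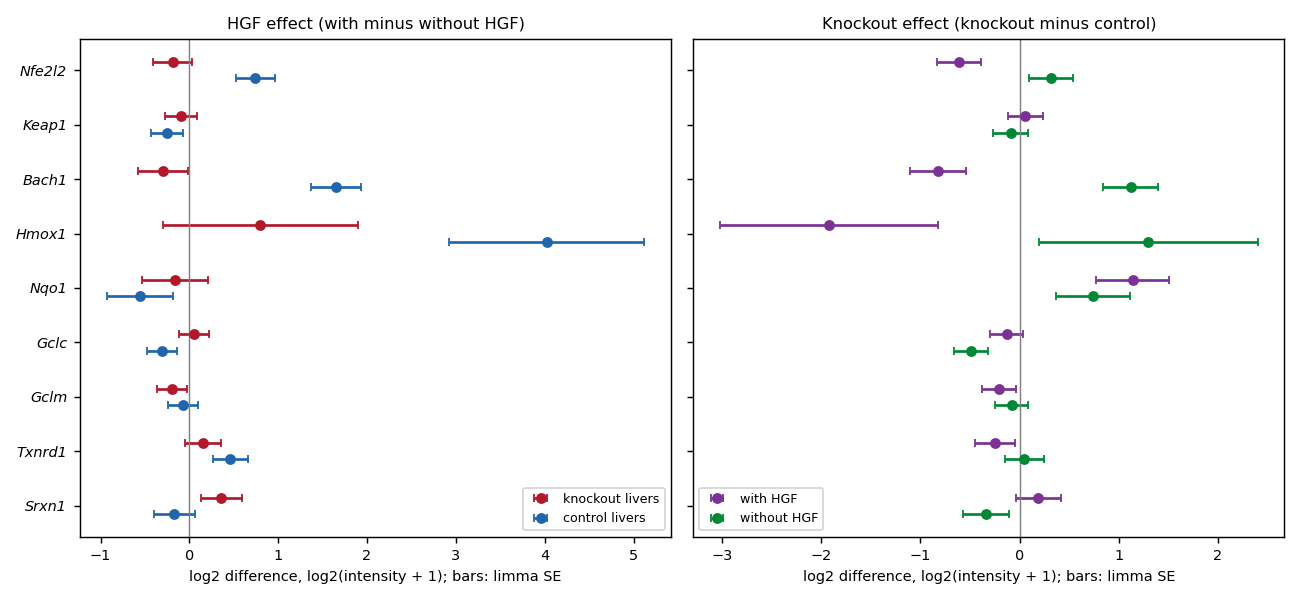
Log2 differences of the 9 tested genes with limma standard errors. Left, with minus without HGF, in knockout livers (red) and control livers (blue); right, knockout minus control, with HGF (purple) and without HGF (green). Bach1 stands at 1.65 and Hmox1 at 4.02 for HGF in control livers, with differences of -0.30 and 0.80 in knockout livers.

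In knockout livers, the second comparison, no member was called and limma called 0% of tested probe sets, while 1.90% had an unadjusted p under 0.05 and no member did. The groups overlapped for all 9 members, against 3.80% of all probe sets without overlap. Hmox1 split each knockout group. It was at 8.43, 6.35 and 9.84 in knockouts with HGF, against 5.71, 10.01 and 6.51 in knockouts without HGF. Replicate 2 was the lowest array with HGF and the highest without, as on the index, where replicate 1 with HGF lay nearer to the low end. The difference was 0.80 (SE 1.10) with all arrays. Without both replicate 2 arrays it was 3.02 (limma adjusted p = 0.0360), with 4.16% of probe sets called in that fit.

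Bach1 did not follow the same arrays in full. It was at 4.94, 5.21 and 6.25 in knockouts with HGF, against 5.62, 6.01 and 5.66 in knockouts without, a difference of -0.30 (SE 0.28). Without both replicate 2 arrays the difference was -0.05 (adjusted p = 0.954), where that of Hmox1 passed. Knockout replicate 1 with HGF had a high Hmox1 (8.43) beside a low Bach1 (4.94). Knockout replicates 1 and 3 without HGF had the reverse, Hmox1 at 5.71 and 6.51 beside Bach1 at 5.62 and 5.66, above all controls without HGF.

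**Figure D3:**
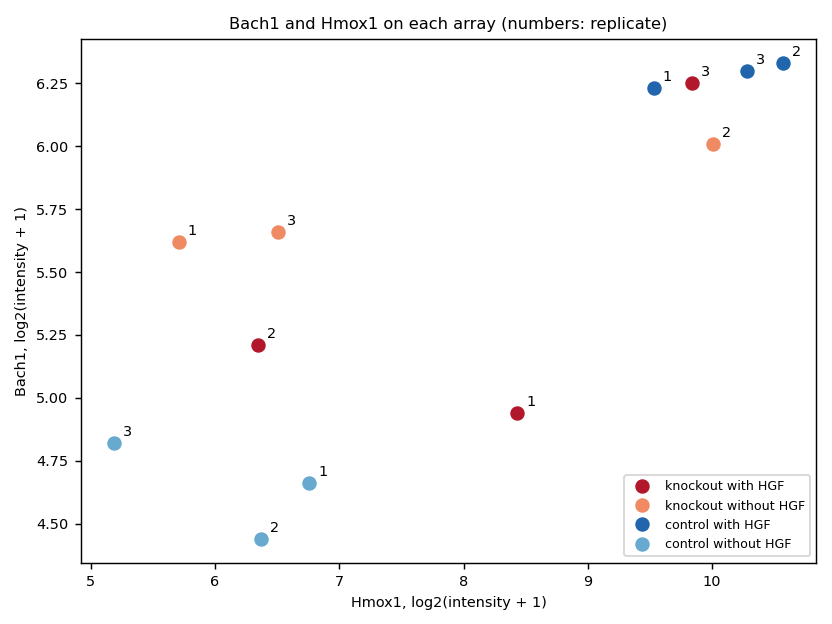
Bach1 against Hmox1 on the 12 arrays, both as log2(intensity + 1), coloured by group and numbered by replicate. The 3 controls with HGF, knockout replicate 3 with HGF and knockout replicate 2 without HGF lie at the upper right (Hmox1 at 9.53 to 10.57, Bach1 at 6.01 to 6.33), the 3 controls without HGF lie at the lower left, and knockout replicates 1 and 3 without HGF lie above those controls in Bach1 at a similar Hmox1.

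Of the 8 neutrophil markers on the array only S100a8 and S100a9 passed the filter. The summed intensity of all 8 followed the same arrays as Hmox1. It was 289, 40 and 1256 in knockouts with HGF, against 65, 1269 and 56 in knockouts without. The macrophage markers did not, at 4987, 3548 and 3767 with HGF against 3075, 3427 and 4755 without. The part of other cells in the Hmox1 values was not tested.

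The other members varied less between knockout arrays. Nfe2l2 was at 8.75, 9.51 and 9.37 in knockouts with HGF, against 9.08, 9.71 and 9.41 without, a difference of -0.19 (SE 0.22). Its 2 highest knockout values were those of replicate 2 of either group. Txnrd1 was at 7.35, 7.22 and 7.42 with HGF, against 6.94, 7.64 and 6.96 without, a difference of 0.15 (SE 0.20). Here replicate 2 without HGF was again the highest and replicate 2 with HGF the lowest of its group; without both, the difference was 0.44 (adjusted p = 0.185).

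For Srxn1 the knockout values were 5.63, 6.11 and 5.40 with HGF, against 5.27, 5.30 and 5.51 without, a difference of 0.36 (SE 0.23). For Gclm they were 9.59, 9.79 and 9.25 with HGF, against 9.77, 9.49 and 9.98 without, a difference of -0.20 (SE 0.17). The groups overlapped for both. The differences were -0.16 (SE 0.37) for Nqo1, 0.05 (SE 0.17) for Gclc and -0.09 (SE 0.18) for Keap1, and the sign of each turned when single knockout arrays were left out, as did those of Nfe2l2 and Hmox1.

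The interaction, the HGF effect in knockouts minus that in controls, tests the difference between genotypes itself. Limma called 0% of tested probe sets and no member. Bach1 had -1.95 (SE 0.40, unadjusted p = 0.000572, adjusted p = 0.211), Nfe2l2 -0.93 (SE 0.32, adjusted p = 0.377) and Hmox1 -3.23 (SE 1.56, adjusted p = 0.487). Bach1 and Nfe2l2 were the 2 members with an unadjusted p under 0.05, against 10.8% of all. The Bach1 interaction passed without knockout replicate 3 with HGF (-2.34, limma adjusted p = 0.00924). That array had the highest Bach1 of its group (6.25, against 4.94 and 5.21) and lay at 0.94 on the index. Leaving it out favours a more negative interaction. The Hmox1 interaction was -1.0 (adjusted p = 0.646) without both knockout replicate 2 arrays.

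The third comparison set knockout against control livers within each condition. Without HGF, Bach1 was higher in all knockout arrays (5.62, 6.01 and 5.66) than in the control arrays (4.66, 4.44 and 4.82). The difference of 1.12 (SE 0.28, 2.18-fold) did not pass (limma adjusted p = 0.177), with 0.0599% of probe sets called and 18.7% not overlapping. It was 1.0 without both knockout replicate 2 arrays (adjusted p = 0.136) and passed without knockout replicate 3 with HGF (1.12, adjusted p = 0.0494), an array outside this contrast that enters through the spread. Srxn1 (5.27, 5.30 and 5.51 in knockouts, against 5.92, 5.57 and 5.59 in controls) and Gclc were the other members whose groups did not overlap.

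Gclc was at 10.99, 11.23 and 11.07 in knockouts without HGF, against 11.58, 11.48 and 11.71 in controls without HGF. All knockout values were lower, and the difference of -0.49 (SE 0.17, adjusted p = 0.332) did not pass. That of Hmox1 was 1.3 (SE 1.10) and rested on knockout replicate 2: without both replicate 2 arrays it was 0.01. Nfe2l2 differed by 0.32 (SE 0.22) and Nqo1 by 0.74 (SE 0.37). Bach1 and Gclc had an unadjusted p under 0.05, against 10.8% of all.

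With HGF, Nqo1 was at 5.82, 5.26 and 5.02 in knockouts, against 4.42, 4.33 and 3.93 in controls. All knockout arrays were higher, and the difference of 1.14 (SE 0.37, 2.21-fold, limma adjusted p = 0.484) did not pass, with 0.0150% of probe sets called. Nfe2l2 was lower on all knockout arrays (8.75, 9.51 and 9.37, against 9.81, 10.10 and 9.57 in controls; difference -0.61, SE 0.22, adjusted p = 0.493). Those were the 2 members without overlap, against 14.9% of all. Bach1 differed by -0.82 (SE 0.28) and Hmox1 by -1.92 (SE 1.10). Bach1, Nqo1 and Nfe2l2 had an unadjusted p under 0.05, against 9.58% of all. Without both knockout replicate 2 arrays the Hmox1 difference was -1.0.

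Over both conditions, Nqo1 was at 5.02 to 6.23 on the 6 knockout arrays and 3.93 to 5.53 on the 6 control arrays. Only control replicate 1 without HGF (5.53) reached into the knockout range, as the other 5 controls ended at 4.50. The averaged knockout difference was 0.94 (SE 0.27, 1.92-fold, unadjusted p = 0.00508, limma adjusted p = 0.278) and did not pass, with 0.0150% called and 9.38% at an unadjusted p under 0.05. It was 1.05 (adjusted p = 0.169) without both knockout replicate 2 arrays. Gclc had the other averaged difference with an unadjusted p under 0.05, at -0.31 (SE 0.12, adjusted p = 0.465). The knockout and HGF comparisons share groups, so their values are not independent of each other.

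Other genes of the system were taken from lists written by hand. Limma called 0 members in 7 of the 8 lists for the HGF effect in control livers, against 0.404% of all tested probe sets. Among NRF2 regulators and partners, 7 of 10 tested genes were positive (median 0.18). Of these, 4 had an unadjusted p under 0.05, against 19.6% of all tested probe sets in either direction. The small MAF gene Maff, whose protein pairs with NRF2 and BACH1, was at 5.07, 5.71 and 5.12 in control livers with HGF, against 2.35, 2.10 and 2.28 without (difference 3.06, SE 0.70, adjusted p = 0.0801). It had low levels, below the filter, without HGF on all control arrays, so it entered the test through the arrays where it was high. The control groups separated fully. A second small MAF gene, Mafk, differed by 0.78 (SE 0.21, adjusted p = 0.103) and Nfe2l1, which encodes the NRF2 relative NRF1, by 0.78 (SE 0.22, adjusted p = 0.112). These 3 passed with the control groups alone, where 6.79% of probe sets were called higher. Maff, Mafk and Nfe2l1 also passed without both knockout replicate 2 arrays, where 8.16% were called in either direction. In knockouts Maff was at 2.91, 2.97 and 4.75 with HGF, against 2.52, 5.30 and 2.61 without. Of the abundant members, the autophagy receptor gene Sqstm1 differed by 0.20 and the ubiquitin ligase scaffold gene Cul3 by 0.26 in controls.

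Other NRF2 targets had negative HGF differences in control livers in 13 of 13 tested genes (median -0.30), where 35.6% of all tested probe sets were positive and their median was -0.09. None was called, and 4 had an unadjusted p under 0.05, against 19.6% of all tested probe sets in either direction. Akr1c13, an aldo-keto reductase, was at 9.90, 9.71 and 9.68 with HGF, against 10.19, 10.30 and 10.36 without (difference -0.52, SE 0.14, adjusted p = 0.106), and passed with the control groups alone. Aldehyde oxidase Aox1 differed by -0.52 (SE 0.16) and Osgin1, an oxidative stress-induced growth inhibitor, by -0.97 (SE 0.50). Of the abundant ones, epoxide hydrolase Ephx1 differed by -0.20 and UDP-glucose dehydrogenase Ugdh by -0.39. In knockouts 9 of the 13 were positive (median 0.05).

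Among 16 glutathione and thioredoxin genes, 5 were positive and 11 negative for HGF in control livers (median -0.09), equal to the median of all probe sets. The thioredoxin inhibitor gene Txnip was at 7.11, 6.74 and 7.65 with HGF, against 8.07, 8.09 and 8.0 without (difference -0.89, SE 0.38, adjusted p = 0.229). Glutathione synthetase Gss differed by -0.49 (SE 0.19) and glutathione peroxidase Gpx3, near background, by 0.68 (SE 0.33). The abundant peroxidase genes Gpx1 and Prdx1 differed by -0.08 and -0.26. Txnip passed with the control groups alone.

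Of 3 superoxide and peroxide enzymes, the mitochondrial superoxide dismutase gene Sod2 was at 10.93, 10.86 and 10.76 in control livers with HGF, against 10.28, 10.16 and 10.23 without (difference 0.63, SE 0.17, adjusted p = 0.106). Its groups were well apart, and it passed with the control groups alone. Cytosolic Sod1 differed by 0.01 (SE 0.08) and catalase Cat by -0.12 (SE 0.12). Among 5 NADPH-supplying genes 4 were negative (median -0.11), with malic enzyme Me1 at 0.44 (SE 0.42), isocitrate dehydrogenase Idh1 at -0.25 (SE 0.12), transketolase Tkt at -0.12 and transaldolase Taldo1 at -0.10, none of them called.

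Among the partners of Hmox1 in haem and iron handling, 13 of 17 tested genes were negative for HGF in control livers and none was called. Their median of -0.10 was close to that of all tested probe sets, -0.09, of which 35.6% were positive. The iron exporter gene Slc40a1 was at 8.94, 8.62 and 8.66 with HGF, against 9.85, 9.63 and 9.84 without (difference -1.04, SE 0.52, adjusted p = 0.305), and passed with the control groups alone. The haem synthesis genes Uros and Alad differed by -0.56 (SE 0.23) and -0.48 (SE 0.16). The plasma haem and haemoglobin carriers Hpx and Hp differed by 0.03 and 0.17.

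ATF4, a stress factor that also drives Slc7a11, was followed through 8 tested genes, 6 of them positive for HGF in control livers (median 0.22). The phosphatase regulator gene Ppp1r15a differed by 1.43 (SE 0.29, adjusted p = 0.0673) and asparagine synthetase Asns by 1.28 (SE 0.53, adjusted p = 0.220), while Trib3 differed by -0.37 (SE 0.77). The sulfur amino acid genes Cth and Cbs differed by 0.26 and -0.08. Of these, Ppp1r15a passed with the control groups alone.

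Among the 8 lists, transcription factors other than NRF2 that are known to act on Hmox1 had the largest shift. Here 7 of 8 tested genes were positive for HGF in control livers (median 2.05). The list was written with earlier results of these data known, so its shift and calls are a description. Limma called 2 of the 8 genes, against 0.404% of all tested probe sets. These were the AP-1 subunit gene Junb (4.46, SE 0.69, limma adjusted p = 0.0338) and the stress-induced factor gene Atf3 (2.79, SE 0.47, adjusted p = 0.0418). Atf3 was at 5.31, 6.36 and 5.64 in controls with HGF, against 2.99, 2.83 and 3.13 without. All controls without HGF lay below the filter of 4, so Atf3 entered the test through the arrays where it was high. Egr1 (2.93, SE 1.10), the AP-1 subunit gene Jun (2.53, SE 0.67) and the NF-kappaB subunit gene Rela (1.57, SE 0.51) did not pass. With the control groups alone 6 of the 8 were called higher and 1, Nr1d1, lower, against 6.79% and 5.19% of all tested probe sets. Nr1d1 is named here after its values were seen. Junb was at 7.59, 6.29 and 7.81 in knockouts with HGF, against 5.0, 8.0 and 5.31 without, and Egr1 at 7.32, 5.77 and 7.34 with HGF, against 2.95, 7.32 and 3.7 without. Both were high on the same 3 knockout arrays as Hmox1, replicates 1 and 3 with HGF and replicate 2 without. Rela was at 8.02, 8.05 and 9.38 in knockouts with HGF, against 7.90, 9.48 and 7.25 without. It was high on replicate 3 with HGF and replicate 2 without but not on replicate 1 with HGF. Atf3, at 3.34, 3.06 and 4.57 with HGF against 3.29, 4.52 and 2.97 without, was high on the same arrays as Rela. Jun was at 7.34, 7.23 and 6.77 with HGF, against 5.61, 7.92 and 4.83 without. Among the arrays with HGF, Jun was highest on replicate 1 and lowest on replicate 3. In knockouts 7 of the 8 were positive (median 0.35) and none was called with all arrays. Without both knockout replicate 2 arrays, where 4.16% of probe sets were called, 3 of the 8 were called higher, Egr1, Fosl2 and Junb (Fosl2 named after its values were seen). In that fit the other 7 lists had 3 called genes for HGF in knockouts, Sqstm1 higher and Prdx2 and Trib3 lower (Prdx2 named after its values were seen).

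**Figure D4:**
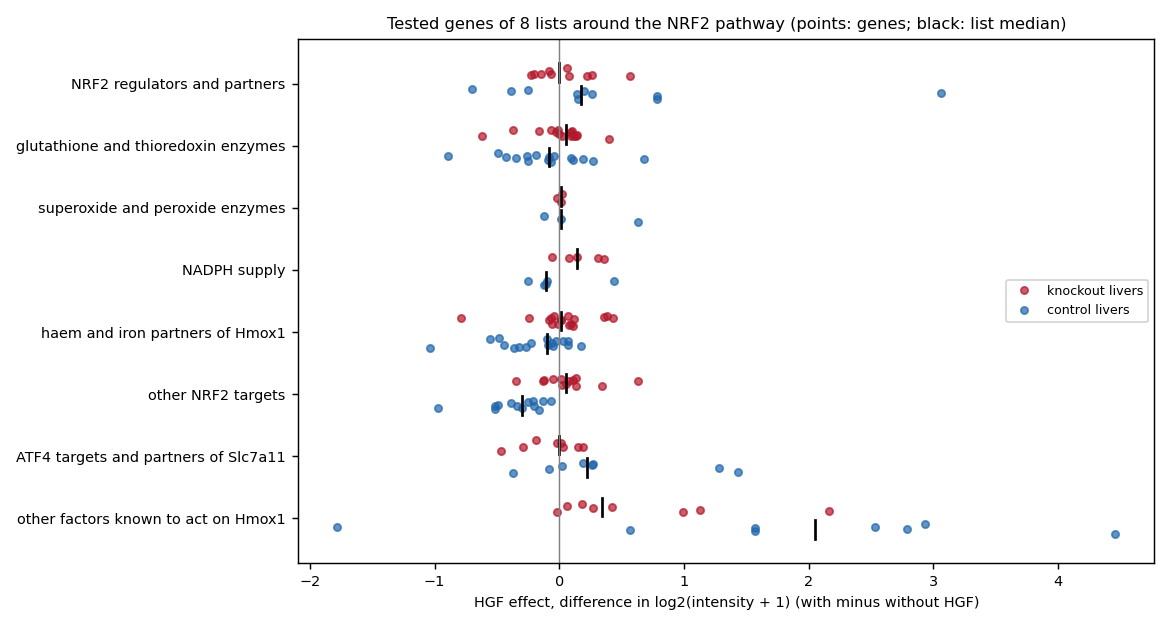
HGF effect of the tested genes in 8 lists around NRF2, as differences in log2(intensity + 1), in knockout livers (red) and control livers (blue); points are genes and black lines list medians. In control livers the other NRF2 targets lie at negative differences (median -0.30), and the factors known to act on Hmox1 have a median of 2.05.

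The genes with the pattern most like that of Hmox1 were Igfbp1, Spic, Irf1, Btg2 and Map3k8. Likeness was the root mean square distance between log2 profiles over the 12 arrays, each gene centred on its own mean, among 6426 tested genes. The distances were 0.365 for Igfbp1, 0.414 for Spic, 0.488 for Irf1, 0.493 for Btg2 and 0.511 for Map3k8, against 1.92 for the distance of Hmox1 from its own mean. Those 5 genes had differences of 3.26 to 4.16 for HGF in control livers, near that of Hmox1 because they were picked on these arrays. For Bach1 the nearest were Ifngr2, Rcl1, Vezf1, Klf7 and Tmem140, at 0.260 to 0.302, against 0.671 for Bach1 from its own mean. The lists of nearest genes for Hmox1 and Bach1 shared none, which follows from the measure. It keeps the size of each profile, and the sizes differ (1.92 for Hmox1, 0.671 for Bach1). All these distances are descriptions over arrays that fall into high and low sets.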

How the data were processed

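Total RNA (5 µg) from liver was labelled with biotin with a one-cycle kit for Affymetrix arrays, 1 per sample, per the labels' protocols. The deposited intensity values were made by the authors with GCRMA, per the submitters' processing notes, which name no version; GCRMA adjusts background using probe sequence and equalises arrays. They are linear, as read from the values. Equalising arrays hides shifts common to most genes, and signals near background are compressed. Of 16539 probe sets, 64 are array controls, and 15780 of the other 16475 have 1 gene symbol, 0 several and 695 none in the platform annotation.

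Values were transformed to log2(intensity + 1), filtered at 4 on at least 3 arrays (6683 probe sets) and analysed in limma 3.58.1 (R 4.3.3) using 1 mean per group, 8 residual degrees of freedom, empirical Bayes moderation and 6 contrasts. Tests were two-sided, and p was adjusted over all tested probe sets. The median SE was 0.178 for a difference between 2 groups and 0.252 for the interaction; the number of arrays limits the precision. The model code was run on simulated arrays with the same spread in all groups, which the Hmox1 values do not have. Groups and replicate numbers came from the sample titles.

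The 10 genes and all lists were chosen with earlier results of these data known. Named genes of a list are its called members (up to 4), the 3 with the largest HGF difference in controls and the 2 with the highest mean. The cell type lists covered hepatocytes, Kupffer cells and macrophages, neutrophils, erythroid cells, sinusoidal endothelium, cholangiocytes and lymphocytes.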

Additional observations from a re-analysis of the deposited data

Results flagged for a closer look

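For Bach1, all 3 knockout arrays without HGF lay above the mean of the controls without HGF, and all 3 knockout arrays with HGF lay below the mean of the controls with HGF. Replicate 3 of the knockouts with HGF (6.25) was within the range of the controls with HGF (6.23 to 6.33), so those groups overlapped. The difference between the knockout effects with and without HGF is the interaction, -1.95 (SE 0.40), which was tested and did not pass (limma adjusted p = 0.211). It ranged from -2.34 to -1.69 when single arrays were left out.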

How the results depend on the processing

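The count of members called for HGF in control livers, 1 of 9, was 3 with only the 2 groups of the contrast (Bach1, Hmox1 and Nfe2l2), 4 with array weights (those and Txnrd1), 2 without both knockout replicate 2 arrays (Bach1 and Hmox1), and 0 with no filter, with a replicate block or without the pair of arrays whose description has an extra letter. It was 1 with a pseudocount of 16, the stricter filter and added quantile normalization, and 0 to 2 without single arrays. In the other contrasts, 0 members became 1 for HGF in knockouts without both replicate 2 arrays (Hmox1). With array weights they became 2 for the knockout effect without HGF, 3 with HGF, 1 averaged and 1 for the interaction, in fits that called 637, 290, 570 and 268 of the 6683 probe sets in that order; the weights did not converge fully. Without single arrays the range was 0 to 1 for the knockout effect without HGF and for the interaction, and 0 elsewhere. All tested probe sets called for HGF in controls numbered 27, but 801 with only the 2 groups, 545 without both knockout replicate 2 arrays, 1353 with array weights, 13 with no filter and 0 with the block or without the extra-letter pair. The cause was not tested.

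Of 54 member differences, 20 changed sign under at least 1 alternative. None of these passed in the main fit or in a fit where its sign changed. The Hmox1 difference for HGF in knockouts is among them, and it passed without both knockout replicate 2 arrays. Among the values printed, Srxn1 for HGF in controls was 0.023 with array weights, and Nqo1 for HGF in knockouts was 0.38 with them and 0.19 without that pair of arrays. Without single arrays, the HGF difference in controls ranged from -0.16 to 0.0046 for Gclm and from -0.33 to 0.056 for Srxn1. That in knockouts ranged from -0.35 to 0.039 for Nfe2l2, -0.22 to 0.10 for Keap1, -0.054 to 2.09 for Hmox1, -0.39 to 0.19 for Nqo1 and -0.073 to 0.17 for Gclc.

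Same-numbered arrays deviated from their group means with r of 0.104, 0.177 and 0.05 in controls and 0.12, -0.829 and -0.698 in knockouts (replicates 1 to 3), so the numbers were not taken as pairs. With a replicate block Bach1 for HGF in controls had an adjusted p = 0.288; knockout effects cannot be fitted with it, since a number is shared only within a genotype.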

Other observations

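The same measure of likeness was applied to Nqo1, a choice made after its values were seen. The 5 nearest genes over the 12 arrays were Lum (0.322), Akr1c19 (0.342), Gstt3 (0.357), Gsta2 (0.391) and Gba2 (0.392), against 0.661 for Nqo1 from its own mean. Gstt3 and Gsta2 encode glutathione transferases. Gsta2 averaged 11.42 in knockouts with HGF and 11.59 in knockouts without, against 10.54 in controls with and 10.75 in controls without HGF. It was picked for its likeness to Nqo1 on these arrays, so this order is not separate from that of Nqo1. For Nfe2l2, also chosen afterwards, the nearest was the immunoproteasome subunit gene Psmb10 (0.171).

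Sinusoidal endothelial markers had a summed intensity of 1409 to 1802 in knockouts with HGF and 1347 to 1874 in knockouts without. Of the 3 erythroid markers on the array only 1 passed the filter, while Slc4a1 and Epb42 did not. The 3 summed to 484 to 540 in knockouts with HGF and 398 to 469 in knockouts without. In controls the sum was 320 to 633 with HGF and 485 to 659 without. No marker of cholangiocytes (4 on the array) or lymphocytes (4 on the array) reached the filter.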
